A study of Rattus norvegicus with 6 samples.

Results

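Smooth muscle actin, its partner proteins in the contractile apparatus and the cardiac form of troponin T were followed across 3 cultured populations of olfactory ensheathing cells (OECs) of the rat, glia that wrap the axons of olfactory neurons. The group holds 10 genes (Acta2, Actg2, Tagln, Cnn1, Myl9, Tpm1, Tpm2, Csrp1, Csrp2 and Tnnt2) of the 3131 genes measured on both array types. They were taken as every probe set annotated with a single one of these symbols, 36 probe sets in all, with 18 on each type. The genes were chosen from measured values, with their signals on these same arrays known. Their levels and differences are therefore given as descriptions. The calls of a fit over all genes are printed beside the share of all genes called, and support nothing about them.

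Total RNA was hybridised to 6 Affymetrix arrays, 1 of type U34A and 1 of type RAE2.0 per population, and this number limits the precision. OEC Ep cells came from the olfactory nerve layer of Wistar rats at postnatal day 21. They were grown for 1 week, with less than 3 population doublings. OEC Lp cells had the same origin and had gone through more than 50 doublings, and for both a purity over 90% by immunocytochemistry is stated. TEG3 is a single clone obtained from OECs of 60-day-old donors with an SV40 large T plasmid. What is particular to this clone, the age of the donors and what large T does therefore cannot be told apart. The medium was the same for all: DMEM, 3% fetal serum, pituitary extract at 20 µg/ml and forskolin at 2 µM, an agent that raises cyclic AMP. The design text names 2 RNA pools per population, each of 3 cultures. Which pool went on which array is not given, so the spread between arrays may be technical.

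Smooth muscle cells, pericytes and myofibroblasts contract with filaments of smooth muscle actins that slide along myosin. Calponin, transgelin and tropomyosin bind along the actin filament, and the myosin regulatory light chain switches the motor on when it is phosphorylated. Many of these genes are driven by serum response factor (SRF), which binds a DNA element called the CArG box together with myocardin or the related MRTF coactivators. Troponin belongs to striated muscle, where its T subunit ties the complex to tropomyosin on the thin filament. Cultured glia and fibroblasts can also carry several contractile genes in their stress fibres.

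Most contractile genes had their highest signal in OEC Ep, while Tnnt2 was high in OEC Lp alone. TEG3 was lower than OEC Ep for Acta2, Actg2, Tagln, Cnn1, Myl9, Csrp1 and Csrp2 on both array types, and higher for Tpm1 and Tpm2. OEC Lp was lower than OEC Ep on both types for Acta2, Actg2, Tagln, Cnn1, Tpm2, Csrp1 and Csrp2. For Tagln, Actg2 and Csrp2 the size of that difference depended on the array type, and for Myl9 and Tpm1 its direction did. These are bulk samples, in which fewer cells of a type and less RNA per cell cannot be told apart.

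The arrays of a type were alike in coverage, with 59.1 to 61.8% of probe sets above the floor, the 40th percentile of the signals of a type. The floors were 128 (U34A) and 168 (RAE2.0). A fold against a population at or below it is written "at least". Log2 ratios were taken after signals under the floor were raised to it, so a ratio that rests on such a signal is a limit set by the floor. RNA quality was read from the GAPDH control probe sets as the 3' signal over the 5' signal. On U34A the ratio of OEC Ep was 1.96, above the 1.52 of OEC Lp and the 1.54 of TEG3, and on RAE2.0 it lay between 0.981 and 1.02. The defining OEC markers went against the label in 2 of the populations. S100b, a calcium-binding protein of glia, had a RAE2.0 signal of 40365 in OEC Ep and was at or below the floor in OEC Lp and TEG3. Sox10, a glial transcription factor, had 5743 in OEC Ep, was below the floor in OEC Lp and had 233 in TEG3. Ngfr, the low-affinity neurotrophin receptor, had 12522 in OEC Ep and was below the floor in both others on RAE2.0. On U34A its probe set X05137_at had 992 in OEC Lp and 1526 in TEG3, against 25277 in OEC Ep, while U25650_f_at, also annotated as Ngfr, had 6397, 6651 and 8593 (OEC Ep, OEC Lp, TEG3).

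Acta2 codes for smooth muscle alpha actin, the main actin of vascular smooth muscle and myofibroblasts. On RAE2.0 its 1 probe set (1370857_at) had a signal of 2451 for OEC Ep, 617 for OEC Lp and 1108 for TEG3. Its U34A probe set rc_AA900769_s_at had 6768, 199 and 522 in the same order. The probe set X06801cds_i_at had 955 in OEC Ep and was below the floor in both other populations, with 119 in OEC Lp and 25.0 in TEG3. The third U34A probe set, X06801cds_f_at, had 2172, 909 and 870. OEC Ep was highest by every Acta2 probe set. The suffixes f, s and x in such names mark probes that can be shared with related sequences. The gene's log2 ratio of OEC Lp to OEC Ep was -3.08 on U34A, where 1 of the 3 probe sets was at the floor, and -1.99 on RAE2.0, where all signals were above it and OEC Lp was 3.97-fold lower. The mean of the types was -2.53, and -1.62 when the brightest probe set of each type stood for the gene. TEG3 was also lower than OEC Ep, by ratios of -2.64 on U34A, with the same probe set at the floor, and -1.15 on RAE2.0. Between TEG3 and OEC Lp the ratio was 0.64 ± 0.284 (SD, n = 2 array types). A further 4 probe sets on U34A and 5 on RAE2.0 carry the symbol of Acta2 beside others and were not used.

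The promoter of Acta2 is shown because the CArG box is the textbook element of this gene. It lies at chr1:241172454-241172753 on the minus strand of the rat assembly GRCr8 (RefSeq), from 250 bases before to 50 bases after the annotated start. Capitals mark stretches that differ by up to 1 letter from a CArG box (at -134 to -125 and -84 to -75, with the start at 0) and the MCAT core CATTCC, read on either strand, at -196 to -191.
Acta2: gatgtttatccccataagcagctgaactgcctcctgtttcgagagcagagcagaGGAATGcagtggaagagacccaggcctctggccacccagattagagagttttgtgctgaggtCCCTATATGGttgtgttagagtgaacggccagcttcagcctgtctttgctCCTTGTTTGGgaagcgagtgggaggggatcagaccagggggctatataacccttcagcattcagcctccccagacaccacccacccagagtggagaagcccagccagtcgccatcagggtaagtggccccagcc

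Actg2, smooth muscle gamma actin, is the main actin of gut muscle. It had a RAE2.0 signal of 644 in OEC Ep, 156 in OEC Lp, which is below the floor, and 253 in TEG3. On U34A the signals were 352, 325 and 9.0, the last of them below the floor. The types thus agree that OEC Ep was above TEG3, and disagree on which of the other populations was lowest. The ratio of OEC Lp to OEC Ep was -0.11 on U34A and, with OEC Lp at the floor, -1.94 or lower on RAE2.0. That of TEG3 to OEC Ep was -1.35 on RAE2.0 and, with TEG3 at the floor, -1.45 or lower on U34A. Without a floor the mean of the types for TEG3 was -3.32. The cytoplasmic actin Actg1, which all cells use, had a U34A signal of 33204 for OEC Ep, 24654 for OEC Lp and 34344 for TEG3. On RAE2.0 Actg1 was lower than in OEC Ep in both others, by log2 ratios of -1.14 in OEC Lp and -0.72 in TEG3. Its ratio of OEC Lp to OEC Ep did not pass the limma test (log2 fold -0.79, adjusted p = 0.293). The cytoplasmic beta actin Actb had U34A signals of 25699, 23270 and 27918.

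Tagln codes for transgelin (SM22), an actin-binding protein that is an early marker of smooth muscle differentiation. On RAE2.0 the signal was 16373 in OEC Ep, 131 in OEC Lp, which is below the floor, and 9082 in TEG3. On U34A one probe set (M83107_at) had 6378, 6045 and 3212, and the other (M83107_g_at) had 13664, 10995 and 6668. OEC Lp was thus near OEC Ep by both U34A probe sets and below the floor by the RAE2.0 probe set. The difference was at least 97.5-fold on RAE2.0 and 1.15-fold on U34A. In log2 the types lay 6.41 apart, a larger gap than for 99.9% of the genes on both types, with the RAE2.0 ratio set by the floor, and no mean of them is given. Without the RAE2.0 arrays the ratio was -0.20. TEG3 was lower than OEC Ep on both, at -1.01 and -0.85, a mean of -0.93 ± 0.115 (SD, n = 2 array types).

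Cnn1 is calponin, which slows the myosin motor and marks mature smooth muscle. Its RAE2.0 signal was 673 for OEC Ep, 102 for OEC Lp and 113 for TEG3. The U34A signals were 451, 121 and 37.0. Calponin was above the floor in OEC Ep alone on both types. Both other populations were lower by at least 3.51-fold on U34A and at least 4.01-fold on RAE2.0. Since both lay below the floor, no fold is given between OEC Lp and TEG3.

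Tropomyosins run along the groove of the actin filament. Tpm1 makes many splice forms, and its 12 probe sets differed among themselves. On RAE2.0 the probe set 1371241_x_at had 2040 in OEC Ep, 116 in OEC Lp, which is below the floor, and 1983 in TEG3. The probe set 1368724_a_at had 1669, 344 and 1701, and 1370287_a_at had 15604, 8757 and 20750. OEC Lp was lowest by these and also by 1370288_a_at, with 7504, 3491 and 10161, and by 1395794_at, with 1157, 971 and 1575. On U34A the order differed by probe set. X02412_at had 2965 for OEC Ep, 802 for OEC Lp and 1989 for TEG3, while M15474cds_s_at had 1239, 2937 and 2555. M60666_s_at had 2637, 4554 and 5413, and M34134_s_at had 8431, 7021 and 10554. The remaining probe sets were near or below the floor, and 1 of them did not pass the filter. Averaged over probe sets, the ratio of OEC Lp to OEC Ep was 0.03 on U34A and -1.37 on RAE2.0, with some probe sets of each type at the floor. For TEG3 and OEC Ep it was 0.37 on U34A and 0.19 on RAE2.0.

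The Tpm1 promoter (chr8:76543366-76543665, minus strand, GRCr8) is shown for comparison, with stretches up to 1 letter off a CArG box at -195 to -186 and -55 to -46 and the MCAT core at -31 to -26 in capitals.
Tpm1: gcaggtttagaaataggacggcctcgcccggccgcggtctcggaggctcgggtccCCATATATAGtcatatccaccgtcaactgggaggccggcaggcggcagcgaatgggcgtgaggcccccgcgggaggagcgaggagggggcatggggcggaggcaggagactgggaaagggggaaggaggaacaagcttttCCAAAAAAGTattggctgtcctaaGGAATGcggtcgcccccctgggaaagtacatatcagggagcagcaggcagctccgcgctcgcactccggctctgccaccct

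Tpm2 codes for beta tropomyosin. Its RAE2.0 probe set 1372219_at had 6330 for OEC Ep, 16 for OEC Lp and 7335 for TEG3. The U34A signals were 310, 5.00 and 579. OEC Lp was below the floor on both types, and the other populations were above it. On 1372219_at the signal of OEC Lp was at least 37.7-fold lower than that of OEC Ep and at least 43.7-fold lower than that of TEG3. The other RAE2.0 probe set, 1392976_at, was above the floor in TEG3 alone, at 255. The gene's ratio of OEC Lp to OEC Ep was -1.27 on U34A and -2.62 on RAE2.0. That of TEG3 to OEC Lp was 2.17 and 3.03. All of these are set by the floor: without it the means of the types were -5.56 and 6.31. TEG3 relative to OEC Ep had 0.90 on U34A and 0.41 on RAE2.0.

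Myl9 is the regulatory light chain of smooth muscle myosin. On RAE2.0 its signal was 3224 for OEC Ep, 1093 for OEC Lp and 579 for TEG3. Among the U34A probe sets S77900_at had 4940, 10704 and 422, and S77900_g_at had 2824, 6901 and 457. TEG3 was lowest by every Myl9 probe set, whereas OEC Lp was above OEC Ep on U34A and below it on RAE2.0. The ratio of TEG3 to OEC Ep was -3.09 on U34A and -2.48 on RAE2.0, a mean of -2.78 ± 0.432, or 6.88-fold. For OEC Lp against OEC Ep the types had opposite signs, 1.20 and -1.56, and the mean of -0.18 ± 1.95 describes neither.

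Csrp1 and Csrp2 code for LIM-domain proteins that sit on actin bundles and help to turn on smooth muscle genes. Csrp1 had RAE2.0 signals of 17918, 5018 and 4681 (OEC Ep, then OEC Lp, then TEG3), and U34A signals of 5375, 2757 and 1825. It was highest in OEC Ep and lowest in TEG3 on both types, with a ratio of -1.40 ± 0.618 in OEC Lp and of -1.75 ± 0.267 in TEG3. Csrp2 had RAE2.0 signals of 4775, 429 and 3497 and U34A signals of 3733, 1523 and 1411. On RAE2.0 OEC Lp stood apart from both others, while on U34A OEC Lp and TEG3 differed by a log2 ratio of -0.11. The ratio of OEC Lp to OEC Ep was -1.29 on U34A and -3.48 on RAE2.0, a mean of -2.38 ± 1.54. For TEG3 it was -1.40 and -0.45, a mean of -0.93 ± 0.675.

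**Figure D1:**
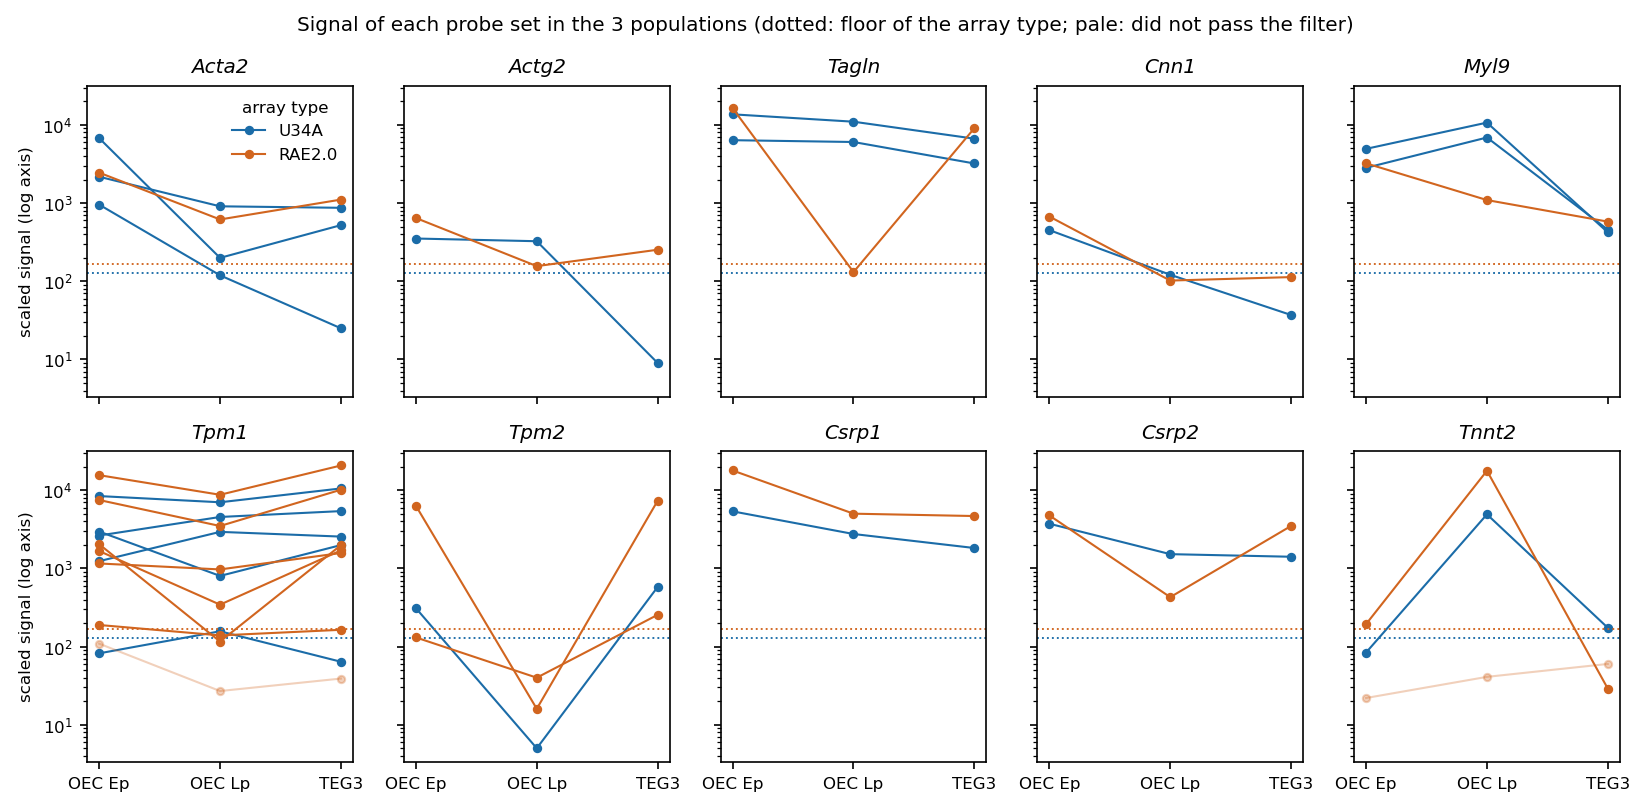
Scaled signal (log axis) of every probe set of the 10 genes in OEC Ep, OEC Lp and TEG3, with 1 line per probe set, U34A in blue and RAE2.0 in orange. Dotted lines are the floors of 128 and 168, and the pale lines are the 2 probe sets that did not pass the filter. For Tagln the RAE2.0 line drops to 131 in OEC Lp while the U34A lines hold 6045 and 10995 there; for Tnnt2 the lines of both types peak in OEC Lp.

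The plot of every probe set by population shows these levels side by side. The lines of the types run alike for Cnn1, Csrp1 and Tpm2 and cross for Tagln and Myl9.

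Tnnt2, the cardiac form of troponin T, was the only one of the 10 genes with its highest signal in OEC Lp on both types. On RAE2.0 the probe set 1367592_at had a signal of 194 for OEC Ep, 17776 for OEC Lp and 29.0 for TEG3. The U34A signals were 84.0, 4921 and 174. The second RAE2.0 probe set, 1390061_at, was below the floor in every population (22.0, 41.0 and 60.0) and did not pass the filter. OEC Lp was the only population far above the floor on both types. It was 91.6-fold higher than OEC Ep on RAE2.0 and at least 38.3-fold higher on U34A, where OEC Ep was at the floor. Against TEG3 it was at least 106-fold higher on RAE2.0 and 28.3-fold higher on U34A. OEC Ep and TEG3 lay at or near the floor on both types.

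A Tnnt2 promoter (chr13:49818873-49819172, plus strand, GRCr8) is shown because textbook cardiac elements for TEAD and GATA factors could be looked for in it. The gene has another annotated start, whose window is not printed. Capitals mark the GATA core AGATAA, read on either strand, at -220 to -215, a stretch up to 1 letter off a CArG box at -192 to -183 and the MCAT core at -83 to -78.
Tnnt2: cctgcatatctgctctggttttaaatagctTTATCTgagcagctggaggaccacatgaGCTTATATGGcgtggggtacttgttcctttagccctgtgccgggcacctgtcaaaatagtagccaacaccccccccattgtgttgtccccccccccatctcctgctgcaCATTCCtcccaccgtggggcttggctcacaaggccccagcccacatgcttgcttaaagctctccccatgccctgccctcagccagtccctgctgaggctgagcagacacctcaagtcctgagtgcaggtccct

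Promoters were found for 8 of the 10 genes (9 windows). The exact CArG box was in none of these, against 1.64% of all 33469 windows. Stretches up to 1 letter off it were in 3 of the 9 windows, those of Acta2 and Tpm1 and the printed one of Tnnt2, against 21.3% of all windows. The MCAT core was in the same 3, against 14.2%, and the GATA core was in the printed Tnnt2 window, against 11.6%. The other Tnnt2 window, chr13:49823809-49824108, held none of these motifs. These matches are letters in a window and were not tested for binding.

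Other troponin genes differed less between the populations or lay below the floor. Tnnc1, the calcium-binding subunit of heart and slow muscle, had RAE2.0 signals of 177 for OEC Ep, 649 for OEC Lp and 378 for TEG3. This is 3.67-fold higher in OEC Lp and 2.14-fold higher in TEG3 than in OEC Ep. Tnni1, the inhibitory subunit of slow muscle, had 189, 348 and 169 with 1371339_at. Tnni3, the cardiac inhibitory subunit, was below the floor in all 3 populations on both types. Of the other troponin genes measured, 0 of 5 were above the floor on U34A in any population. On RAE2.0 it was 4 of 7 for OEC Ep, 3 for OEC Lp and 2 for TEG3. Actc1, the cardiac actin, was below the floor on U34A throughout, with 38.0, 19.0 and 26.0.

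**Figure D2:**
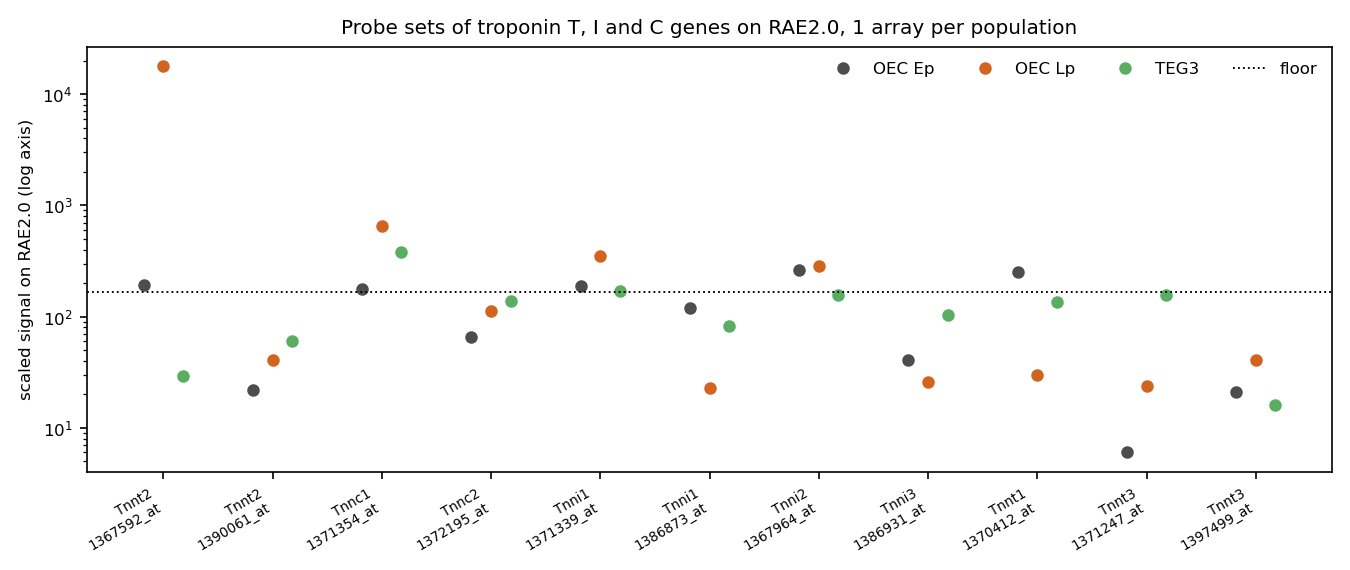
Scaled RAE2.0 signal (log axis) of each probe set of the troponin T, I and C genes in OEC Ep, OEC Lp and TEG3, 1 array each, with the floor of 168 dotted. The Tnnt2 probe set 1367592_at stands at 17776 in OEC Lp, and its other probe set lies below the floor in all populations. Tnnc1 goes from 177 in OEC Ep to 649 in OEC Lp.

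The plot of troponin probe sets shows 1 Tnnt2 probe set far above its own level in the other populations, with most others near the floor. Among 49 listed genes of the sarcomere and calcium handling of striated muscle, Tnnt2 left out, 9 passed on both types, and limma called 0 of them in each comparison. At an unadjusted p under 0.05 there were 0 in OEC Lp against OEC Ep, where 8.82% of all genes were higher and 10.7% lower. There were 1 higher and 1 lower in TEG3 against OEC Ep (8.88% and 12.8% of all genes), and likewise 1 and 1 between TEG3 and OEC Lp (5.91% and 9.52%). Their median log2 ratio was -0.08 for OEC Lp against OEC Ep, beside 0.11 over all genes, then 0.14, beside 0.04, for TEG3, and -0.05, beside -0.01, between TEG3 and OEC Lp. On RAE2.0, 12 of 48 measured were above the floor in OEC Lp, 13 in OEC Ep and 15 in TEG3, and on U34A 11, 8 and 15 of 38.

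Tnnt2 and Csrp1 lie on chromosome 13 with 3 protein-coding genes between them, Phlda3, Tnni1 and Lad1. Phlda3 had RAE2.0 signals of 3066, 1586 and 807 (OEC Ep, then OEC Lp, then TEG3). Lad1 had U34A signals of 102, 186 and 66.0. The log2 ratios of OEC Lp to OEC Ep were -0.95 for Phlda3, 0.88 for Tnni1 and, with OEC Ep at the floor, 0.53 or higher for Lad1. For Tnnt2 the ratio was 5.26 or higher on U34A, with OEC Ep at the floor, and 6.52 on RAE2.0. For Csrp1 it was -0.96 on U34A and -1.84 on RAE2.0.

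Over the 10 genes, the median log2 ratio was -1.65 for OEC Lp against OEC Ep, beside 0.11 over all 3131 genes. It was -0.58 on U34A and -1.96 on RAE2.0. In TEG3 relative to OEC Ep it was -1.17, beside 0.04 over all genes, with -1.43 on U34A and -1.0 on RAE2.0. Between TEG3 and OEC Lp it was 0.32, beside -0.01, with -0.35 on U34A and 0.72 on RAE2.0. These comparisons share arrays, so each describes its own pair of populations.

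In OEC Lp against OEC Ep the array types gave the same sign for 8 of the 10 genes, for TEG3 beside OEC Ep it was 9, and between TEG3 and OEC Lp 6. Over all genes the shares were 62.4%, 64.5% and 57.0%. The median gap between the types' log2 ratios was 1.38 for the 10 genes in OEC Lp against OEC Ep, beside 0.56 over all genes. In TEG3 against OEC Ep it was 0.44, beside 0.55, and in TEG3 against OEC Lp 1.57, beside 0.56. The types therefore lay far apart for these genes where OEC Lp was one of the populations. The source of these gaps was not tested.

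**Figure D3:**
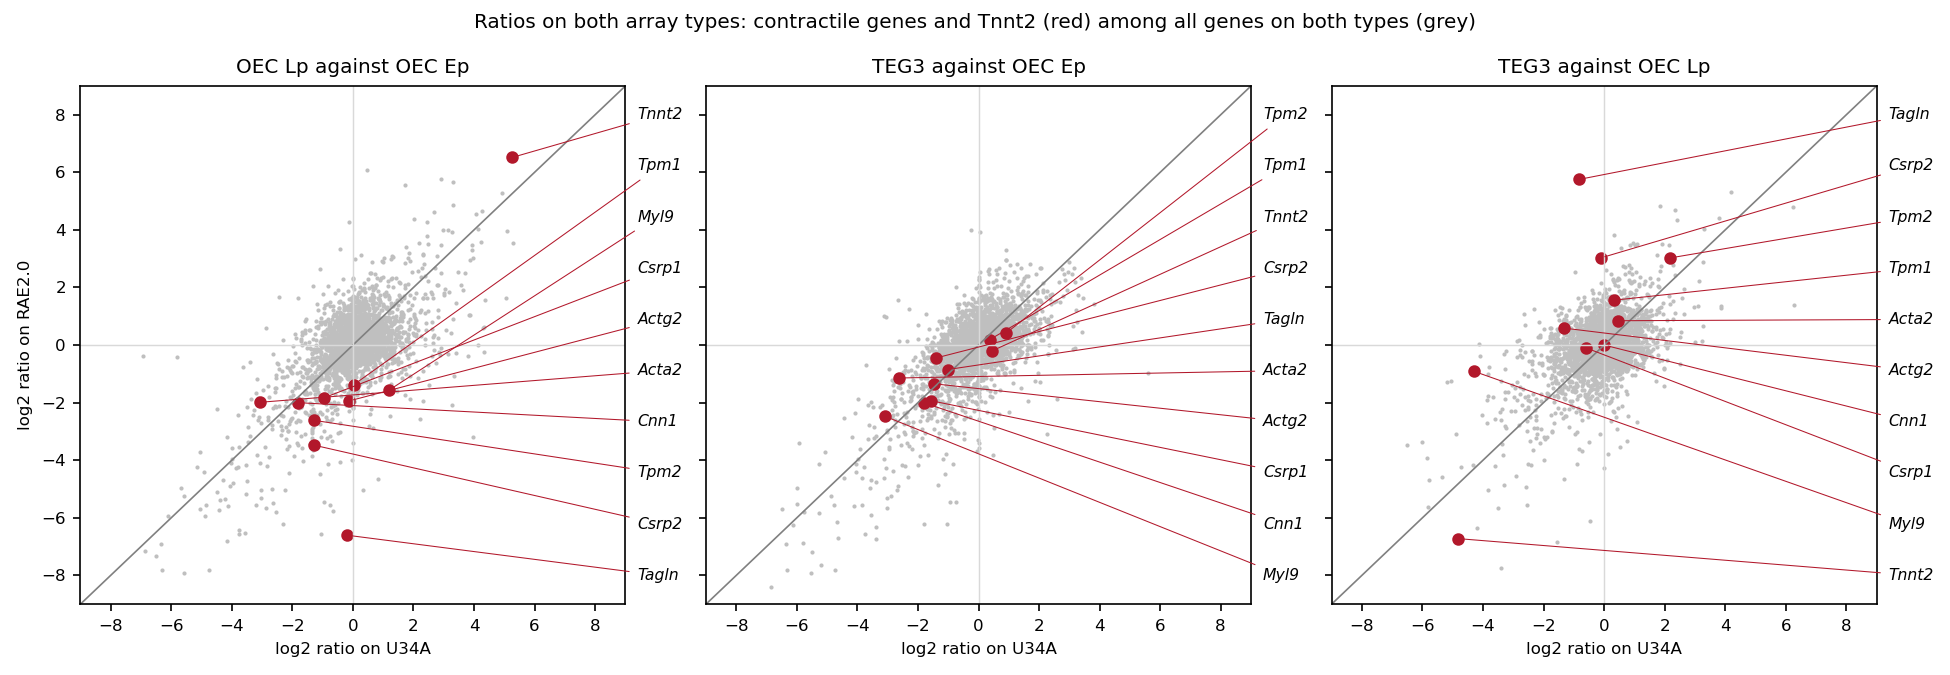
Log2 ratio on U34A (horizontal) against that on RAE2.0 (vertical) for all 3131 genes on both types (grey) and the 10 genes (red), in 3 panels for the 3 comparisons, with the diagonal of equal ratios. Tagln lies far off the diagonal in both panels with OEC Lp (-0.20 and -6.61 on the left) and near it in the middle panel.

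**Figure D4:**
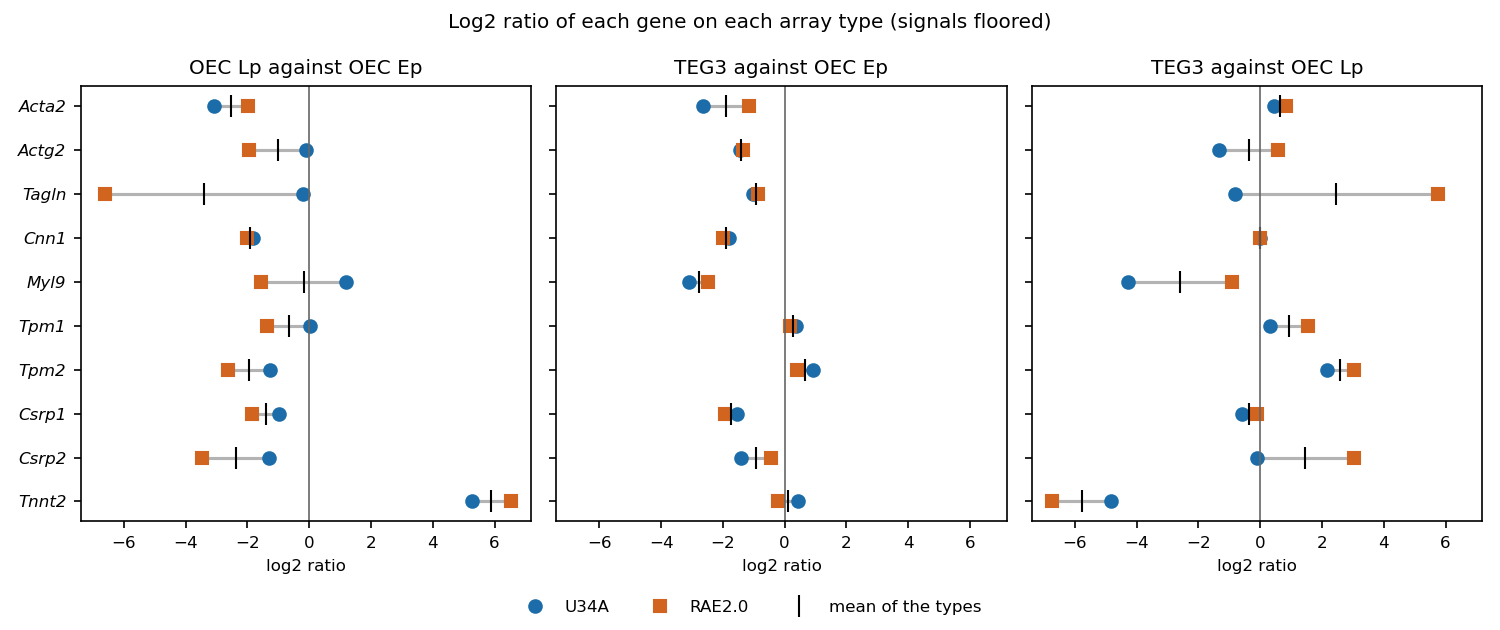
Log2 ratio of each of the 10 genes in the 3 comparisons, with U34A as circles, RAE2.0 as squares and their mean as a tick. In the middle panel (TEG3 against OEC Ep) most circles and squares lie close together, with a median gap of 0.44, although those of Acta2 lie 1.49 and those of Csrp2 0.954 apart, and in the left and right panels several lie far apart, with median gaps of 1.38 and 1.57.

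The scatter of both array types and the plot of ratios by gene show the same gaps. Genes on the diagonal of the scatter, such as Cnn1, have circle and square together in the plot of ratios.

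With limma over all genes on both types, 2 of the 10 genes, Acta2 and Cnn1, were called lower in OEC Lp than in OEC Ep, where 4.02% of all genes were. Tnnt2 was the 1 gene called higher, where 2.11% were. For TEG3 against OEC Ep the count was 1 lower, Cnn1, where 3.7% of all genes were called, and 0 higher, where 0.639% were. Between TEG3 and OEC Lp it was 1 lower, Tnnt2, where 1.02% were called, and 0 higher, where 0.192% were. On RAE2.0, 9 of the 10 genes were lower in OEC Lp than in OEC Ep by at least 2-fold and 1 was higher, where 10.4% of 11542 genes were lower and 10.4% higher. On U34A it was 4 lower and 2 higher, where 10.1% and 11% of 3726 genes were. In TEG3 relative to OEC Ep 5 were lower and 0 higher, where 10.6% and 12.1% of genes were, and on U34A 7 and 0, where 12.9% and 10.5% of genes were. For TEG3 against OEC Lp 1 was lower and 4 were higher, where 8.66% and 9.63% of genes were. U34A leaned the other way, with 3 lower and 1 higher, where 11.6% and 8.08% were. At an unadjusted p under 0.05 limma had 1 higher and 5 lower in OEC Lp (8.82% and 10.7% of all genes), 0 and 5 in TEG3 (8.88% and 12.8%) and, between those populations, 1 and 2 (5.91% and 9.52%). The calls of Acta2, Cnn1 and Tnnt2 were each lost with no filter on dim probe sets, with no floor and with no replicate block. The adjusted p over the settings other than leave-outs ran from 0.0193 to 0.475 for Acta2, from 0.0222 to 0.492 for Cnn1 in OEC Lp and from 0.0287 to 0.619 in TEG3. For Tnnt2 it ran from 0.00447 to 0.226 in OEC Lp against OEC Ep and from 0.0153 to 0.369 between TEG3 and OEC Lp by limma. Leaving out any 1 array ended the calls of Acta2 and Cnn1 and that of Tnnt2 in TEG3 (0 of 6 fits held), and the call of Tnnt2 in OEC Lp held in 2 of 6, those without a TEG3 array. The genes were selected on these values, so nothing is read from the counts.

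A list of 39 further genes of smooth muscle and stress fibres, written with results of these data known, was set beside the 10. Of the 17 on both types, limma called 1 lower and 0 higher in OEC Lp against OEC Ep (4.02% and 2.11% of all genes), and the same numbers in TEG3 against OEC Ep (3.7% and 0.639%). In both it was Itga7, an integrin subunit that binds laminin in muscle. At an unadjusted p under 0.05 there were 4 and 5 lower, where 10.7% and 12.8% of all genes were, and 0 higher, where 8.82% and 8.88% were. Between TEG3 and OEC Lp limma called 0, with 1 lower at an unadjusted p under 0.05, where 9.52% of all genes were. The list's median log2 ratio was -0.38 and -0.48, beside 0.11 and 0.04 over all genes. Itga7 had U34A signals with X65036_at of 4735 in OEC Ep and 608 in TEG3, and OEC Lp was below the floor. With some probe sets at the floor in OEC Lp and in TEG3, its falls on the log2 scale are lower limits. It fell by at least 2.42 ± 0.306 (SE) in OEC Lp (limma adjusted p = 0.0160, with 0.0111 to 0.295 over the other settings). In TEG3 it fell by at least 1.82 (limma adjusted p = 0.0399, with 0.0226 to 0.584). It was lower in both by each of its 5 probe sets that exceeded the floor. On RAE2.0, 8 of 35 list genes were lower in OEC Lp than in OEC Ep by at least 2-fold and 1 was higher, where 10.4% of all genes were in each direction.

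Mylk, the kinase that phosphorylates the myosin light chain, had RAE2.0 signals with 1371541_at of 3718 for OEC Ep, 18.0 for OEC Lp and 237 for TEG3. It was thus at least 22.1-fold lower in OEC Lp and 15.7-fold lower in TEG3, with 1 array per population and no test. Myh11, the smooth muscle myosin heavy chain, had 461, 43.0 and 411 with the RAE2.0 probe set 1370896_a_at. On U34A S61948_s_at had 130, 183 and 68.0. The types had opposite signs for OEC Lp against OEC Ep. The log2 ratio was 0.49 on U34A and, with OEC Lp at the floor, -1.46 or lower on RAE2.0. Their mean did not pass the test (log2 fold -0.48, limma adjusted p = 0.692). Cald1, caldesmon, had 37094, 19482 and 15622 with 1371969_at. Its ratio did not pass in OEC Lp (log2 fold -0.26, limma adjusted p = 0.687). Vcl, vinculin, which anchors actin at adhesions, had 15384, 16250 and 8858 with 1375538_at. Des, desmin, had 264, 307 and 249.

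Regulators of these genes were also looked up. Srf had RAE2.0 signals of 1754 for OEC Ep, 1071 for OEC Lp and 1812 for TEG3 with 1388842_at. With 1374829_at the signals were 217, 302 and 218, so OEC Lp was highest there. Averaged over the probe sets that passed the filter, the log2 ratio of OEC Lp to OEC Ep was -0.12. Myocd, myocardin, was below the floor in every population, so its signals have no order. Mrtfa, a coactivator that responds to free actin, had 549, 835 and 955. The regulator of muscle genes Mef2c had, with 1372332_at, 2093, 646 and 75.0, the last below the floor, and Tead1, which binds the MCAT element, had 6535, 4690 and 6682 with 1389287_at. Gata6 had 187, 348 and 952 with 1368827_at and 467, 459 and 663 with 1375613_at. On U34A L22760_at had 67.0, 669 and 520, with OEC Lp highest and OEC Ep below the floor. The gene's ratios to OEC Ep did not pass the limma test (adjusted p = 0.328 in OEC Lp and 0.153 in TEG3). Gata4 had RAE2.0 signals of 150, 108 and 498 with 1387894_at, above the floor in TEG3 alone. On U34A L22761_at was also above the floor in TEG3 alone, while rc_AI234969_s_at had 276, 371 and 289. The ratios of Gata4 to OEC Ep did not pass the limma test either (adjusted p = 0.924 in OEC Lp and 0.265 in TEG3).

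Of 32 SRF and cardiac regulators, 9 were on both types. In OEC Lp against OEC Ep 2 were called higher and 0 lower (2.11% and 4.02% of all genes), and in TEG3 against OEC Ep 1 was called higher and 0 lower (0.639% and 3.7%). At an unadjusted p under 0.05 there were 3 and 4 higher, where 8.82% and 8.88% of all genes were, and 0 lower. Between TEG3 and OEC Lp limma called 0, with 1 higher and 2 lower at an unadjusted p under 0.05 (5.91% and 9.52% of all genes). The medians were 0.53, 0.84 and -0.21. Klf4, a factor that represses smooth muscle genes in other settings, had RAE2.0 signals of 286, 2618 and 1777 (OEC Ep, then OEC Lp, then TEG3). On U34A a probe set of Klf4 was below the floor in OEC Ep. The gene rose by at least 2.70 ± 0.448 (SE) in TEG3 (limma adjusted p = 0.0385, with 0.0202 to 0.720 over the other settings). In OEC Lp it rose by at least 2.53 (limma adjusted p = 0.0349, with 0.0130 to 0.659 over the other settings). Prrx1, a mesenchymal homeobox factor, had U34A signals of 680, 2255 and 1373. On RAE2.0 each of its probe sets was below the floor in OEC Ep. Prrx1 therefore rose by at least 1.91 ± 0.325 in OEC Lp (limma adjusted p = 0.0316, with 0.0302 to 1 over the other settings). No call of Itga7, Klf4 or Prrx1 held when any 1 of the 6 arrays was left out.

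Of 17 SRF target genes outside these lists, 9 were on both types and limma called 0 in each comparison, with medians of -0.11, -0.34 and -0.14. At an unadjusted p under 0.05 there were 2 higher and 1 lower in both comparisons with OEC Ep, and 1 and 1 between TEG3 and OEC Lp, beside the shares of all genes given above. Of 43 genes that control contraction, 26 were on both types. Cav1, which builds the caveolae that stud smooth muscle membranes, was the 1 gene called, higher in OEC Lp against OEC Ep, where 2.11% of all genes were. At an unadjusted p under 0.05 there were 3 higher and 4 lower, where 8.82% and 10.7% were. In the other comparisons limma called 0, with 3 and 3 in TEG3 against OEC Ep and 1 and 3 between TEG3 and OEC Lp unadjusted, beside the same shares of all genes as for the other lists. Cav1 signals on RAE2.0 with 1370131_at were 847, 20624 and 1754, and on U34A 37.0, 2227 and 596. With OEC Ep below the floor on U34A, Cav1 rose by at least 4.08 ± 0.435 (SE) on the log2 scale in OEC Lp (limma adjusted p = 0.0101, with 0.00817 to 0.821 over the other settings). That call held in 2 of 6 fits that left out 1 array, those without a TEG3 array, which repeat a single fit. The list's medians were 0.05, -0.18 and -0.01.

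Markers of other cell types moved with the populations, and their part in the levels above was not tested. Vascular smooth muscle and pericyte markers had a summed RAE2.0 signal of 14527 for OEC Ep, 3487 for OEC Lp and 2438 for TEG3, with 6, 4 and 6 of 11 above the floor. Mcam, an adhesion molecule, made up most of the first sum, with 12539, 78.0 and 1097. On U34A the sums were 1637, 1377 and 1296, with 5, 5 and 3 of 7 above the floor. Pdgfrb, a receptor of pericytes and fibroblasts, had 1247, 4740 and 601 with 1370642_s_at. Rgs5, a pericyte marker, was below the floor in all 3 populations on RAE2.0. Fibroblast and myofibroblast markers summed to 215855, 200826 and 75379 on RAE2.0, with 10, 9 and 6 of 11 above the floor, and to 92524, 99400 and 50454 on U34A, with 9, 6 and 6 of 9. The like sums of OEC Ep and OEC Lp hide opposite moves of single genes on RAE2.0. From OEC Ep to OEC Lp, Postn went from 56582 to 394 and Fbln2 from 47455 to 288. In the other direction, Col3a1 went from 21808 to 78964 and Fn1 from 36415 to 68574.

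OEC and Schwann cell markers summed to 87411, 814 and 1171 on RAE2.0, with 9, 2 and 1 of 9 above the floor. On U34A they summed to 41839, 4603 and 6361, with 7, 4 and 6 of 7. Ngfr made up most of the U34A sums of OEC Lp and TEG3, with 3822 and 5059, against 15837 in OEC Ep. These Ngfr values average X05137_at with U25650_f_at, whose probes can be shared and whose signals were 6397, 6651 and 8593. S100b counted as above the U34A floor in OEC Lp and TEG3 only by rc_AI146214_at, with 129 and 135, close to that floor. Macrophage markers summed to 37237, 271 and 397 on RAE2.0, with 7, 0 and 1 of 7 above the floor, and to 25445, 385 and 570 on U34A, with 5, 2 and 1 of 6. Endothelial markers summed to 768, 1874 and 1088 on RAE2.0, with 3 of 7 above the floor in each population. There Flt1 went from 218 in OEC Ep to 1105 in OEC Lp. On U34A they summed to 278, 244 and 654, with 1, 0 and 3 of 6. Cardiac muscle markers other than Tnnt2 summed to 739, 1169 and 862 on RAE2.0, with 2, 2 and 1 of 9 above the floor. On U34A they summed to 723, 870 and 972, with 2, 3 and 4 of 9. Skeletal muscle markers summed to 890, 1011 and 890 on RAE2.0, with 3, 2 and 1 of 9 above the floor, and to 658, 465 and 521 on U34A, with 1, 1 and 2 of 8.

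**Figure D5:**
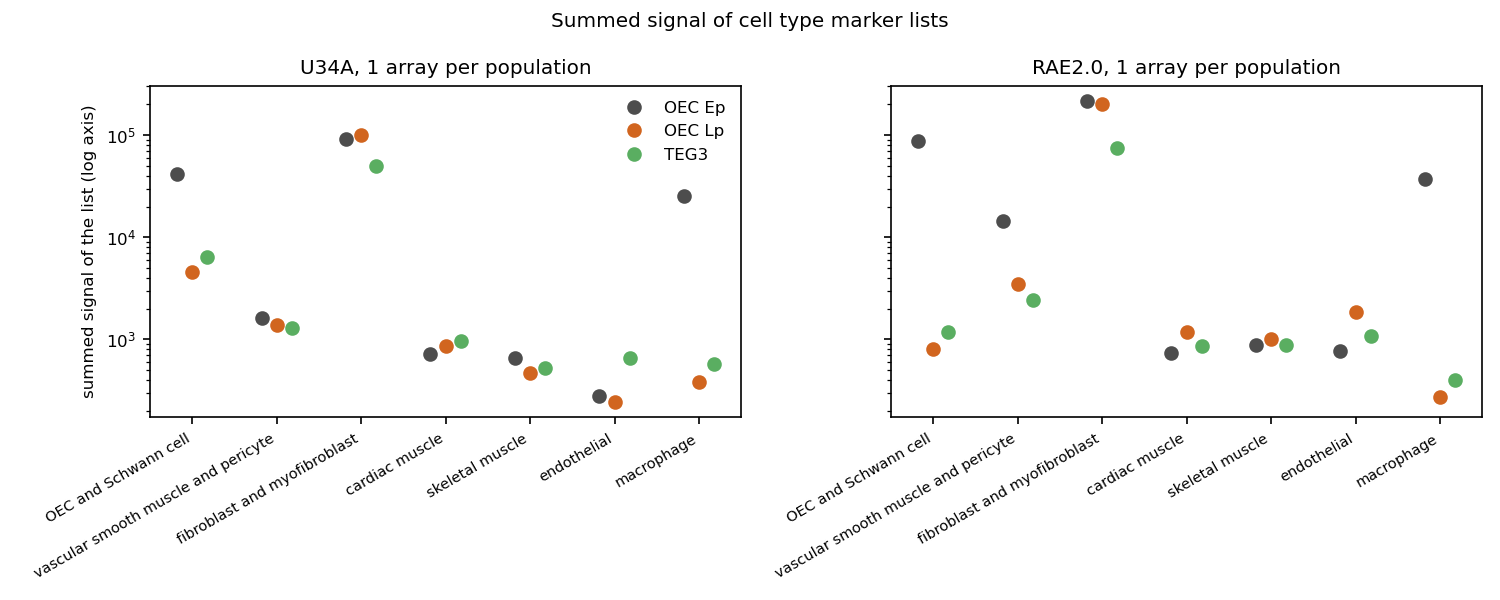
Summed scaled signal (log axis) of each list of cell type markers in the 3 populations (grey OEC Ep, orange OEC Lp, green TEG3), on U34A (left) and RAE2.0 (right), 1 array per population. OEC and macrophage markers stand far higher in OEC Ep than in the others (87411 against 814 and 1171 for OEC markers on RAE2.0), and cardiac and skeletal muscle markers lie at or under 1169 in all populations.

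In the plot of marker sums, OEC Ep had the highest sums of OEC, macrophage, and vascular smooth muscle and pericyte markers on both types. Most contractile genes also had their highest signals in this population. The fibroblast and myofibroblast sum was highest in OEC Ep on RAE2.0 and in OEC Lp on U34A. Whether these sums bear on the contractile genes was not tested.

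Genes whose pattern over the 6 arrays lay closest to a gene of interest were found by the Euclidean distance between log2 signals centred within an array type. Nearest to Acta2 were Col11a1, a collagen chain (distance 0.312), Atf3, a stress factor (0.541), Btg1, which restrains growth (0.573), Tns3, a tensin (0.597), and Itga7 (0.708). Nearest to Tnnt2 were Omd, a small proteoglycan (1.61), Akr1c14, a steroid reductase (2.06), Tspan8, a tetraspanin (2.36), Itgb4, an integrin (2.36), and Serping1, a complement inhibitor (2.45). Omd had RAE2.0 signals of 118, 8564 and 22.0, and 146, 1457 and 26.0 on U34A. Among the 10 genes the closest pairs were Cnn1 with Csrp1 (0.628), Actg2 with Csrp1 (0.840) and Acta2 with Cnn1 (1.14). Tagln lay 2.38 from its nearest gene, Tmsb15b2. The distances describe these 6 arrays and say nothing of shared control.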

How the data were processed

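Total RNA of 3 populations was measured on 3 U34A arrays (8799 probe sets) and 3 RAE2.0 arrays (31099 probe sets). The authors deposited signal intensity values on a linear scale, made with MAS5 per the submitters' processing notes; the design text names Microarray Suite 5.0 and a filter with no setting. The tables hold no detection calls, and the annotation's genome build is not given in the sources used here. Each array was scaled to one 2% trimmed mean within its type, signals under the 40th percentile were raised to it, and log2 was taken. Printed signals are scaled values before this floor. Kept were probe sets with a single symbol that were above the floor on 1 or more of the 3 arrays; those with several (308 and 436) were left out, as were control probe sets. A gene is the mean log2 of its probe sets. A model over all 6 arrays with terms for population and array type (the labels' replicate number, so the replicate block) was fitted to the 3131 genes present on both types, in limma 3.58.1 under R 4.3.3. P-values were adjusted by Benjamini-Hochberg at 0.05. With 1 array per population and type, the 2 residual degrees of freedom hold how far the population differences disagree between the array types. These types have different probes, so the p-values do not measure a spread between replicate arrays of a type. The limma fit added a prior of 3.56 degrees of freedom shared over genes. The procedure was tested on simulated data. Named were all 10 genes, up to 4 called genes per list, genes looked up whatever their result and single markers that weigh on a sum. The genes and lists were chosen with earlier results of these data known. Alternatives changed the floor, filter, normalization, probe set rule, block and arrays; the closing section gives their effect. Promoters came from RefSeq's GRCr8 table, and motifs were searched on both strands. The search up to 1 letter off the CArG box was added after the exact search had been seen.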

Additional observations from a re-analysis of the deposited data

How the results depend on the processing

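The array number and the floor limit these results: with 1 array per population and type, levels under 128 (U34A) or 168 (RAE2.0) have no order. Genes called by limma numbered 192 between OEC Lp and OEC Ep, 136 between TEG3 and OEC Ep and 38 between TEG3 and OEC Lp. In the same order, no floor gave 66, 11 and 0 (437 at an unadjusted p under 0.05), no filter on dim probe sets 1, 1 and 0 (469 unadjusted), and a filter on all 3 arrays 77 and 86 for the first 2. Without the replicate block (the array type) limma called 0, 0 and 0 genes, with 193, 172 and 110 at an unadjusted p under 0.05. The 4 arrays of the populations compared gave 41, 0 (623 unadjusted) and 0 (375 unadjusted). Leaving out 1 array gave 0 to 41 calls between OEC Lp and OEC Ep (41 without either TEG3 array) and 0 in every fit of the others, where 318 to 623 passed unadjusted. A fit without an array of the third population repeats the fit to the 4 arrays of the populations compared. The cause of the lost calls was not tested. Quantile normalization (194, 146 and 40), no scaling, the brightest probe set and a floor at the 60th percentile kept the counts within 1.5 times, except where given above. The median log2 ratio of the 10 genes in OEC Lp against OEC Ep ranged from -1.96 to -0.60 when 1 array was left out (-0.60 without the RAE2.0 array of OEC Lp), and in TEG3 against OEC Ep from -1.89 to -0.71. It was -1.75 with the filter on all 3 arrays, which left 5 genes. Between TEG3 and OEC Lp the median of 0.32 turned to -0.37 without the RAE2.0 array of OEC Lp and to -0.04 with no floor. Of the 30 ratios of single genes 29 were not 0, and 22 of these kept their sign under every alternative.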
